A study of Mus musculus with 4 samples.

Results

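The mitochondrial ribosomal proteins were examined by bulk RNA-seq in the tissue that wraps the mouse femoral artery, mainly perivascular adipose tissue (PVAT). The genes were taken by name, as every row of the deposited table whose symbol starts with *Mrpl* or *Mrps* followed by a digit. They numbered 77 of the 12661 genes in the table, 48 of them named for the large subunit (*Mrpl*) and 29 for the small subunit (*Mrps*). All 4 libraries came from ovariectomized wild type C57BL/6 females aged 11 weeks. In the injury group (2 libraries) a wire had been passed into the femoral artery 48 h before the tissue was taken, and in the sham group (2 libraries) the mice had been sham-operated 48 h before. Whether 1 library holds 1 animal or several is not given in the sources used here, so the p-values measure only the spread between these libraries.

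The mitochondrial ribosome, or mitoribosome, translates the few mRNAs that are written from mitochondrial DNA, all of which encode subunits of the oxidative phosphorylation complexes. Its rRNAs come from mitochondrial DNA, whereas all of its proteins are encoded in the nucleus, made in the cytosol and imported. The large subunit joins amino acids and holds the exit for the new polypeptide, and the small subunit reads the mRNA. Brown and beige adipocytes are dense in mitochondria and depend on this ribosome for their respiratory chain.

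Each value is one deposited number per gene and library. These are signed values on a log-like scale, and neither the base of the scale nor the level that 0 stands for is stated. A value is therefore given in deposited units, differences are injury minus sham, no fold change is given, and levels of different genes cannot be compared. Read depth is unknown. The median over all 12661 genes lay between -0.0062 and -0.0028 in every library, and the median difference over all genes was 0.0085.

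After injury the genes of the mitoribosome lay a little higher than after sham operation, nearly all of them together. The median difference over the 77 genes was 0.28 deposited units, with a range from -0.10 (*Mrps5*) to 0.63 (*Mrpl51*). In 64 genes (83.1%) both injury libraries lay above both sham libraries, where 31.6% of all genes did. In none did both injury libraries lie below both sham libraries, where 30.3% of all genes did, and the groups overlapped in the remaining 13 genes. The mean was higher after injury in 72 genes and lower in 5, against 50.9% and 49.1% of all genes. By library, the median of the 77 genes was -0.22 in sham 1, -0.13 in sham 2, 0.092 in injury 1 and 0.12 in injury 2.

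No single member passed the test. In limma, with p-values adjusted by Benjamini-Hochberg over the whole table, 0 of the 77 genes had an adjusted p-value under 0.05, against 7.43% of all genes (3.76% higher and 3.67% lower). Without adjustment, 26 members had a p-value under 0.05, all of them higher after injury (33.8%, against 14.8% of all genes higher and 14.8% lower). That count was 0 without sham replicate 1 (7.75% of all genes higher in the same fit) and 9 without sham replicate 2 (9.62%). Leaving out injury 1 gave 17 (12.2%), and leaving out injury 2 gave 13 (15.4%). At an adjusted p-value under 0.1 there were 8 members, all higher. That share (10.4%) is near the 9.21% of all genes that were higher at this threshold, and 9.09% were lower. With a library left out the count at 0.1 was 5 without injury replicate 2 (11.2% of all genes) and 0 without injury replicate 1 (4.85%). Without either sham library no gene of the table was higher at 0.1. The count was 1 with the replicate number as a block (7.38%), 3 with the GC and length trend removed (8.91%), 10 with the columns scaled to one spread (9.10%) and 12 after quantile normalization (9.13%). The standard errors of the members were 0.13 to 0.22 deposited units, and for 75 of the 77 the 95% interval of the difference lay below 1 deposited unit.

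**Figure D1:**
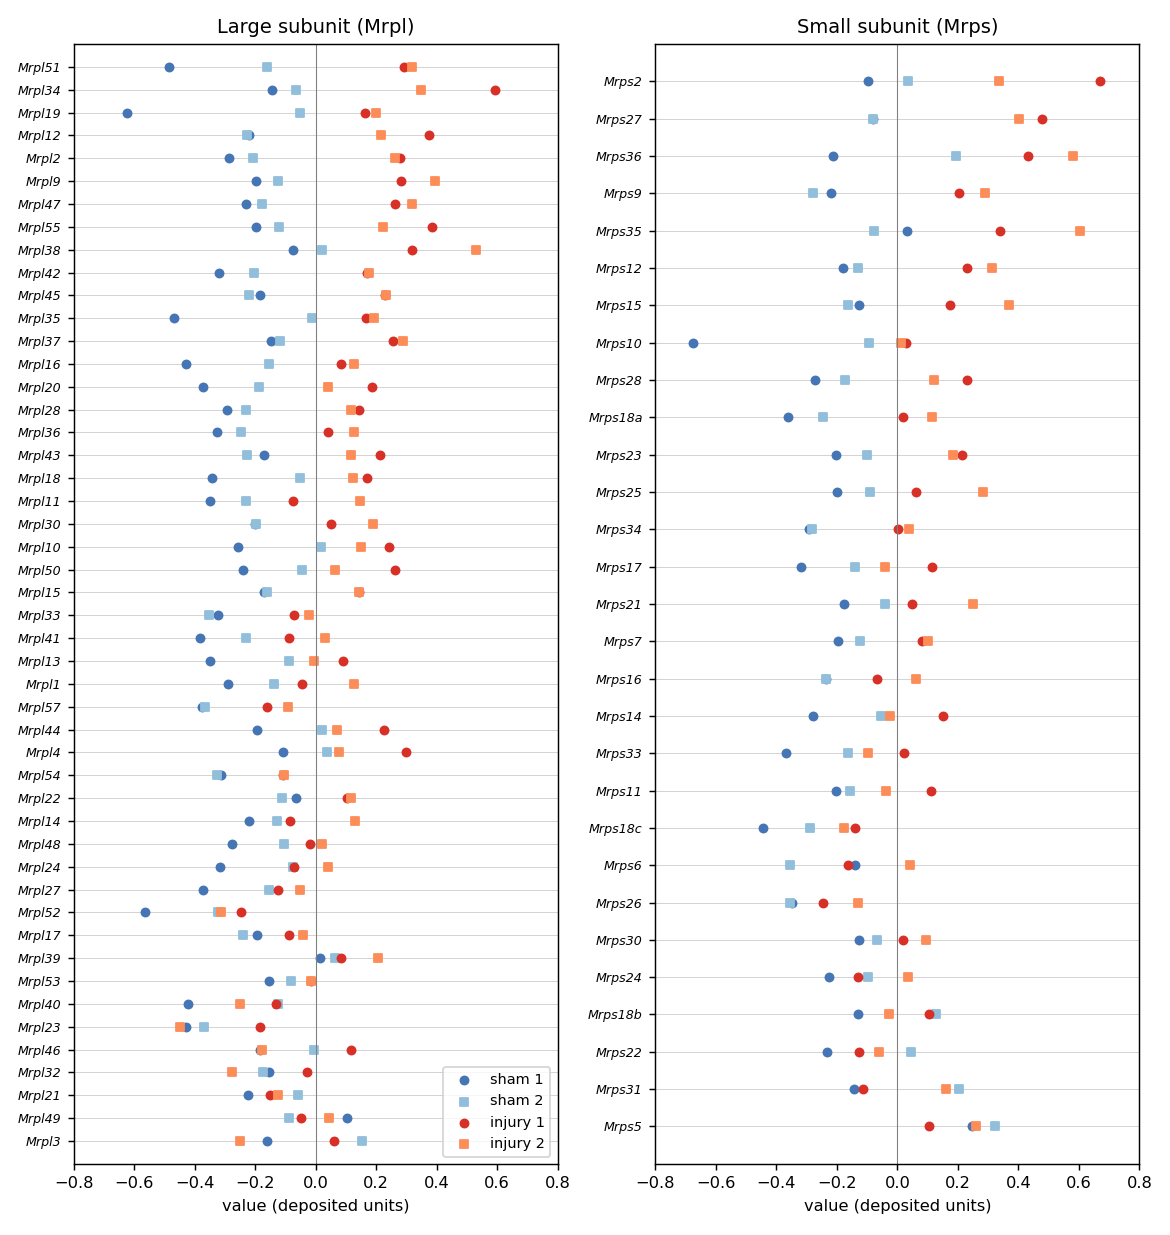
Value of each mitoribosomal protein gene in each of the 4 libraries (deposited units), large subunit on the left and small subunit on the right, ordered by the difference between injury and sham. Circles and squares are replicates 1 and 2, blue for sham and red or orange for injury. In 64 of the 77 genes both injury points lie to the right of both sham points, and the gap between the sham points is widest in *Mrps10* (0.58) and *Mrpl19* (0.57).

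The 8 members with an adjusted p-value under 0.1 were *Mrps27*, *Mrpl2*, *Mrpl51*, *Mrpl34*, *Mrpl12*, *Mrpl47*, *Mrps9* and *Mrpl9*. *Mrps27*, a small-subunit protein built of pentatricopeptide repeats, stood at -0.082 and -0.081 after sham operation against 0.48 and 0.40 after injury. Its libraries were close within each group, and the gap of 0.52 between the groups (standard error 0.13, limma adjusted p = 0.0719) had the lowest adjusted p-value of the members. *Mrpl51*, a large-subunit protein that bacteria do not have, had the highest difference of the members, 0.63 (standard error 0.16, adjusted p = 0.0752 from limma). It was at -0.48 and -0.16 after sham operation and at 0.29 and 0.32 after injury, so that most of its spread lay between the sham libraries. *Mrpl34*, the counterpart of bacterial L34, stood at -0.14 and -0.065 in sham tissue and at 0.59 and 0.35 in injured tissue (difference 0.58, adjusted p = 0.0778 from limma). *Mrpl9*, the counterpart of bacterial L9, was at -0.20 and -0.13 after sham operation and at 0.28 and 0.39 after injury (difference 0.50, adjusted p = 0.0828 from limma). In all 8 genes the lower injury library was above 0 and the higher sham library below 0. This also held in 35 of the 77 members and in 1721 of the 12661 genes. The 8 were chosen by p-value, which favours a clear gap between the groups, and the level of 0 is not stated.

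In the mm9 assembly with the GENCODE annotation, the assembly to which the reads were aligned, *Mrps27* is on chromosome 13 from 100114741 to 100185516 on the plus strand. *Mrpl51* is on chromosome 6 from 125141819 to 125145601 and *Mrpl34* on chromosome 8 from 73988825 to 73989651, both on the plus strand. The positions found for 76 of the 77 genes are spread over 17 chromosomes, and *Mrpl57* had none. In that annotation 28 members overlap a gene on the opposite strand and 8 overlap a gene on the same strand. Among the 8 genes above, *Mrps27*, *Mrpl12*, *Mrpl47* and *Mrps9* overlap a gene on the opposite strand and *Mrpl2* one on its own strand. The library kit marks the strand, but the strand setting of the read counting is not given in the sources used here.

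The large subunit has a stalk that recruits translation factors, formed by the proteins of *Mrpl12* and *Mrpl10* with that of *Mrpl11* at its base. The protein of *Mrpl1* forms a separate stalk on the other side, where spent tRNA leaves. These 4 genes were all higher in both injury libraries (31.6% of all genes were), with differences of 0.25 to 0.52. *Mrpl12* was at -0.22 and -0.23 after sham operation and at 0.37 and 0.22 after injury (difference 0.52, adjusted p = 0.0794 from limma). *Mrpl10* stood at -0.26 and 0.016 in sham tissue and at 0.24 and 0.15 in injured tissue (difference 0.32, adjusted p = 0.245 from limma). *Mrpl11* was at -0.35 and -0.23 after sham operation and at -0.074 and 0.15 after injury (difference 0.33), and *Mrpl1* differed by 0.25. The injury libraries of *Mrpl11* were 0.22 apart, with injury 2 the higher.

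Near the peptidyl transferase centre, where peptide bonds are made, lie the proteins of *Mrpl2*, *Mrpl3*, *Mrpl16* and *Mrpl27*, and 3 of these 4 genes were higher in both injury libraries (31.6% of all genes). *Mrpl2* was at -0.29 and -0.21 after sham operation and at 0.28 and 0.26 after injury (difference 0.52, adjusted p = 0.0731 from limma). *Mrpl16* had a difference of 0.40 (adjusted p = 0.165 from limma), from -0.43 and -0.15 in sham tissue to 0.083 and 0.13 in injured tissue. *Mrpl27* was at -0.37 and -0.16 after sham operation and at -0.12 and -0.052 after injury (difference 0.18). *Mrpl3*, a gene mutated in an inherited cardiomyopathy, had the lowest difference of the large subunit, -0.092 (standard error 0.19, adjusted p = 0.779 from limma). It stood at -0.16 and 0.15 in sham tissue and at 0.060 and -0.25 in injured tissue, so the groups overlapped, with a gap of 0.31 within each group.

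At the polypeptide exit, 5 of 6 members were higher in both injury libraries, against 31.6% of all genes. *Mrpl47* was at -0.23 and -0.18 after sham operation and at 0.26 and 0.32 after injury (difference 0.49, adjusted p = 0.0799 from limma). *Mrpl45*, which ties the mitoribosome to the inner membrane where its products are inserted, was at -0.18 and -0.22 after sham operation and at 0.23 in both injury libraries (difference 0.43, adjusted p = 0.101 from limma). The replicates of *Mrpl45* were 0.037 apart in the sham group and 0.0021 apart in the injury group. *Mrpl22*, *Mrpl24* and *Mrpl17* had differences of 0.20, 0.18 and 0.15. *Mrpl23* was the member with overlap, at -0.43 and -0.37 after sham operation and at -0.19 and -0.45 after injury. In the central protuberance, the crown of the large subunit, the 5 members analysed differed by 0.065 (*Mrpl46*) to 0.45 (*Mrpl38*), and 3 of the 5 had no overlap. *Mrpl38* was at -0.075 and 0.022 after sham operation and at 0.32 and 0.53 after injury (adjusted p = 0.120 from limma). *Mrpl18* and *Mrpl48* differed by 0.34 and 0.19. *Mrpl40* (0.084) and *Mrpl46* had overlapping groups.

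The other large-subunit genes at the ends of the range were *Mrpl19*, *Mrpl32*, *Mrpl21* and *Mrpl49*. *Mrpl19* had a difference of 0.52 but a standard error of 0.22 (adjusted p = 0.183 from limma), because sham 1 (-0.63) lay far below sham 2 (-0.053). Its injury libraries were at 0.16 and 0.20. *Mrpl32*, whose protein is trimmed by a protease of the inner membrane before it joins the ribosome, was at -0.15 and -0.17 after sham operation and at -0.030 and -0.28 after injury (difference 0.011). *Mrpl21* differed by 0.0032 and *Mrpl49* by -0.0083, both with overlapping groups. Their 95% intervals ran from -0.35 to 0.35 and from -0.37 to 0.36, so that the median difference of the members lies inside them. The signs of *Mrpl21*, *Mrpl32* and *Mrpl49* turned when the columns were scaled another way. *Mrpl44*, another gene of inherited cardiomyopathy, was at -0.19 and 0.021 after sham operation and at 0.22 and 0.070 after injury (difference 0.23, adjusted p = 0.365 from limma).

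In the small subunit, 5 listed genes of the decoding centre and the surrounding head (*Mrps12*, *Mrps7*, *Mrps9*, *Mrps10* and *Mrps14*) were all higher in both injury libraries (31.6% of all genes). Their median difference was 0.40, and the list does not hold every gene of the head. *Mrps12*, the counterpart of the bacterial decoding protein S12, was at -0.18 and -0.13 after sham operation and at 0.23 and 0.31 after injury (difference 0.43, adjusted p = 0.109 from limma). *Mrps9* was at -0.22 and -0.28 after sham operation and at 0.20 and 0.29 after injury (difference 0.50, adjusted p = 0.0819 from limma). *Mrps7* and *Mrps14* had smaller differences, 0.25 and 0.23. *Mrps10* stood at -0.68 and -0.093 in sham tissue and at 0.028 and 0.011 in injured tissue. The difference of 0.40 rests on sham 1, since it was 0.11 with that library left out and 0.70 with sham 2 left out.

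*Mrps2*, the counterpart of bacterial S2, had the highest difference of the small subunit, 0.53 (standard error 0.17, adjusted p = 0.111 from limma). It was at -0.098 and 0.036 after sham operation and at 0.67 and 0.34 after injury, so that the injury libraries were farther apart than the sham libraries. *Mrps35*, a protein particular to mitochondria, was at 0.030 and -0.076 after sham operation and at 0.34 and 0.60 after injury (difference 0.49). At the other end, *Mrps5* was at 0.25 and 0.32 after sham operation and at 0.10 and 0.26 after injury (difference -0.10, adjusted p = 0.669 from limma). This was the lowest difference of the members, and the groups overlapped. *Mrps22*, whose mutations impair the small subunit in inherited disease, differed by -0.0011 with a 95% interval from -0.39 to 0.39. *Mrps31* differed by -0.0079, and replicate 2 was above replicate 1 by 0.35 in the sham and by 0.28 in the injury libraries. Of the other small-subunit genes mutated in mitochondrial disease, *Mrps34* was at -0.29 and -0.28 after sham operation and at 0.0005 and 0.038 after injury (difference 0.31). *Mrps16* was at -0.24 in both sham libraries and at -0.069 and 0.062 after injury (difference 0.23).

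The names do not match the structure for 3 of the 29 *Mrps* genes. The proteins of *Mrps18a* and *Mrps30* sit in the large subunit, and that of *Mrps36* is a component of the oxoglutarate dehydrogenase complex of the citric acid cycle. *Mrps18a*, *Mrps18b* and *Mrps18c* descend from one bacterial protein, S18, and are present as separate genes in mammals. Their differences were 0.37, 0.039 and 0.21. *Mrps18a* was at -0.36 and -0.25 after sham operation and at 0.019 and 0.11 after injury, and *Mrps18c* at -0.45 and -0.29 and at -0.14 and -0.18. The groups of *Mrps18b* overlapped, at -0.13 and 0.13 in sham tissue and at 0.10 and -0.029 in injured tissue. *Mrps30* differed by 0.15. *Mrps36* stood at -0.21 and 0.19 in sham tissue against 0.43 and 0.58 in injured tissue (difference 0.52, adjusted p = 0.140 from limma).

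The subunits were then set side by side. The median difference was 0.30 over the 48 genes of the large subunit and 0.26 over the 29 of the small subunit. Both injury libraries lay above both sham libraries in 41 of the 48 and in 23 of the 29 genes, against 31.6% of all genes. By library, the large subunit had medians of -0.25, -0.13, 0.098 and 0.12 in sham 1, sham 2, injury 1 and injury 2, and the small subunit had -0.20, -0.10, 0.082 and 0.10. The gap between the medians of the differences, 0.041, is a description with no test, since genes are not replicates. It was -0.0006 without sham replicate 1 and 0.021 or less without any other library, so no difference between the subunits was resolved in these libraries. Placed by structure, with *Mrps18a* and *Mrps30* in the large subunit and *Mrps36* left out, the medians were 0.30 and 0.25. Proteins with a bacterial counterpart (46 genes) had a median difference of 0.30, and those particular to mitochondria (28 genes) had 0.24. The diverged S18 copy *Mrps18b* was counted with the 28, and *Mrps18a*, *Mrps30* and *Mrps36* with neither. Split by subunit, the medians were 0.32 and 0.24 in the large subunit and 0.25 and 0.27 in the small subunit.

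**Figure D2:**
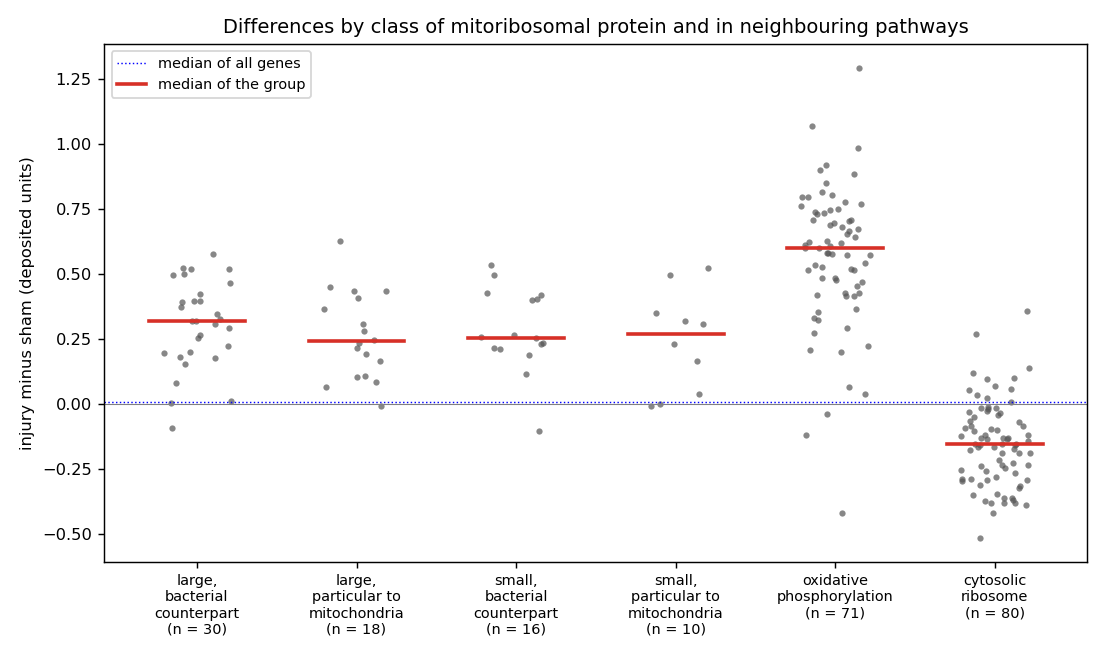
Difference between injury and sham (deposited units) of each gene, as points, by class of mitoribosomal protein and for 2 other gene groups. Red bars are group medians, and the dotted line is the median of all genes. *Mrps18a*, *Mrps30* and *Mrps36* are not drawn. The medians of the 4 mitoribosomal classes lie between 0.24 and 0.32, that of the oxidative phosphorylation subunits at 0.60 and that of the cytosolic ribosome at -0.16.

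The replicates of the sham group differed. In 63 of the 77 members sham 2 was above sham 1, by a median of 0.099, and in 45 injury 2 was above injury 1, by a median of 0.027. Over all 12661 genes, sham 2 was above sham 1 in 6131 (median gap -0.0083). Injury 2 was above injury 1 in 6467 of all genes (median gap 0.0064). Leaving out sham 1 gave the members a median difference of 0.21, and leaving out sham 2 gave 0.34. The largest gaps between sham libraries were those of *Mrps10* (0.58), *Mrpl19* (0.57) and *Mrpl35* (0.46), in each of which sham 1 was the lower. Leaving out sham 1 or sham 2 moved *Mrpl19* (0.52) to 0.24 or 0.81, *Mrpl18* (0.34) to 0.20 or 0.49 and *Mrpl10* (0.32) to 0.18 or 0.45. It moved *Mrpl24* (0.18) to 0.058 or 0.30 and *Mrpl27* (0.18) to 0.067 or 0.28. Likewise *Mrps36* (0.52) moved to 0.31 or 0.72, *Mrpl44* (0.23) to 0.13 or 0.34 and *Mrps14* (0.23) to 0.12 or 0.34. With each library left out in turn, the difference remained above 0 in 66 members in every case. The 64 members with no overlap are among these by construction, since their sign cannot turn when a library is left out. The share of all genes was not counted for this measure. In 1 member, *Mrps5*, it remained below 0.

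The genes that act with these proteins were taken from lists of mitoribosome subunits with other names, translation factors, assembly factors, and genes of mitochondrial transcription, mRNA handling and membrane insertion. Of these, 48 were analysed. Their median difference was 0.26, and 30 of the 48 lay higher in both injury libraries and 4 lower (31.6% and 30.3% of all genes). Only 1 of the 48 was called by limma (3.76% of all genes were called higher), *Lrpprc*, which binds and stabilizes mitochondrial mRNAs. It was at -0.14 and 0.092 after sham operation and at 0.75 and 0.69 after injury (difference 0.74, adjusted p = 0.0472 from limma). *Lrpprc* was not called when any single library was left out (adjusted p = 0.0547 to 0.266 from limma). Among the translation factors, *Tsfm*, the exchange factor of the elongation factor Tu, differed by 0.76 (adjusted p = 0.0534 from limma), *Gfm1*, an elongation factor G, by 0.51 and *Tufm*, elongation factor Tu, by 0.27. *Mrrf*, the recycling factor that frees the ribosome after termination, had lower values in both injury libraries (difference -0.33, adjusted p = 0.177 from limma). Among the assembly factors, *Rbfa* differed by 0.72 (adjusted p = 0.0542 from limma) and *Ddx28*, an RNA helicase of large-subunit assembly, by 0.59, whereas *Mtg2*, a GTPase of large-subunit assembly, differed by -0.48. Of the 6 subunits with other names analysed, 4 were higher and 1 was lower in both injury libraries (31.6% and 30.3% of all genes). *Chchd1* was the lower one (difference -0.066), and the groups of *Ptcd3* overlapped (difference 0.0985). *Dap3* of the small subunit differed by 0.18 and *Gadd45gip1* of the large subunit by 0.35. *Ict1*, the peptidyl-tRNA hydrolase built into the central protuberance, differed by 0.27.

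The product of the mitoribosome goes into complexes whose other subunits are nuclear. The 71 nuclear subunit genes of oxidative phosphorylation analysed had a median difference of 0.60, 66 of them with no overlap and higher after injury (31.6% of all genes), and 17 were called higher by limma (3.76% of all genes). Their library medians were -0.19, -0.076, 0.41 and 0.54. The 80 cytosolic ribosomal protein genes had a median difference of -0.16, 45 of them with both injury libraries below both sham libraries (30.3% of all genes), and 0 were called in either direction. Of the cytosolic genes 11 had an unadjusted p-value under 0.05 in limma, all lower, near the 14.8% of all genes lower at this threshold. These values are given side by side, and the differences between the groups of genes were not tested.

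**Figure D3:**
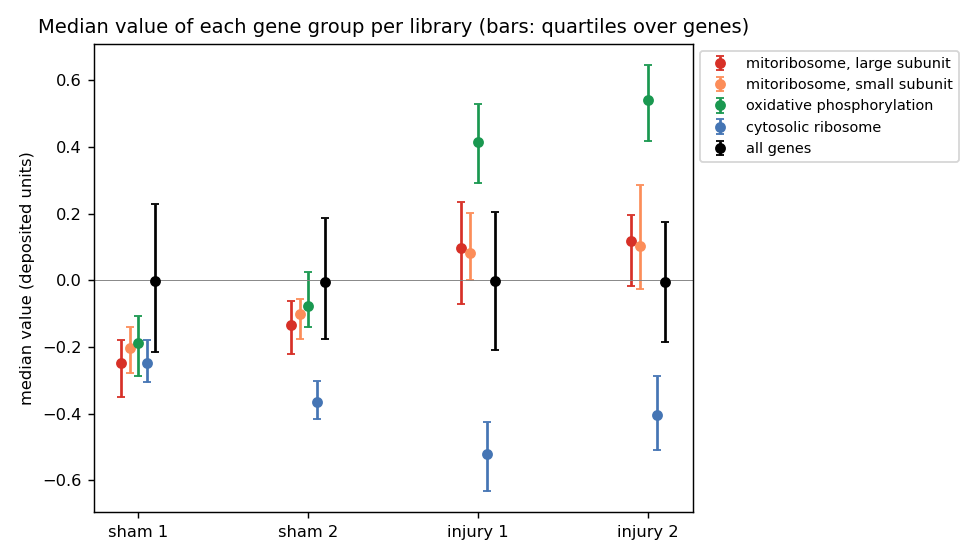
Median value (deposited units) of each gene group in each of the 4 libraries, with bars from the lower to the upper quartile over the genes of the group, which are not an error of the median. Both subunits of the mitoribosome lie below 0 in the sham libraries (-0.25 to -0.10) and above 0 in the injury libraries (0.082 to 0.12), while the cytosolic ribosome is lower in both injury libraries (-0.52 and -0.40) than in both sham libraries (-0.25 and -0.37).

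Marker genes of several cell types differed between the groups as well. Since the level that 0 stands for is not stated, the values show how a marker differed and not how abundant it was. All 12 pan-adipocyte genes of the list had values. The counts that follow stand against 31.6% of all genes higher and 30.3% lower in both injury libraries. Of 10 brown adipocyte genes, 9 were higher in both injury libraries (median difference 1.11), with library medians of 0.61, 0.89, 1.72 and 1.75, so that sham 2 was above sham 1 here too. All 10 macrophage genes were higher in both injury libraries (median difference 1.41), with library medians of -1.20, -1.02, 0.70 and -0.019, so that injury 1 was the highest. Of the pan-adipocyte genes 1 was higher and 5 were lower in both injury libraries (median difference -0.10). All 8 smooth muscle genes (median difference -2.10), 7 of 8 endothelial genes (-0.77) and 5 of 8 skeletal muscle genes analysed (-0.75) were lower in both injury libraries, and 1 skeletal muscle gene, *Pvalb*, was higher in both (difference 1.11). Of 7 neutrophil genes 6 were higher and 1 was lower in both (1.86). Of 10 proliferation genes 1 was higher in both (0.25). The sham libraries also differed in these lists, in either direction. In sham 1 and sham 2 the medians were 1.64 and 0.98 for smooth muscle and 0.71 and -0.044 for skeletal muscle. For proliferation they were -0.99 and -0.28. More cells of a type and more RNA per cell cannot be told apart in bulk tissue, and the part of these cell types in the values of the mitoribosomal genes was not tested.

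Mitoribosomal transcripts are short, and short transcripts as a whole lay slightly higher after injury in these libraries. The longest coding transcript had a median of 1213 bases in the 76 members with a known length, against 3021 bases over the 11417 genes with one (90.2%), and 41 of the 76 fell in the shortest of 10 bins of genes by length. Over all genes the median difference was 0.12 in the shortest bin and -0.14 in the longest. In the shortest bin 44.3% of genes were higher in both injury libraries, against 19.1% in the longest. With the trend of GC content and length removed from each library, an alternative chosen after seeing the data, the median difference of the members was 0.23. Then 55 of the 77 were higher in both injury libraries, against 32.5% of all genes. In limma 15 of the 77 were higher at an unadjusted p-value under 0.05, against 1878 of the 12661 genes (14.8%). With the replicate block as well, 11 of the 77 were, against 1697 of the 12661 genes (13.4%). The share of the members was then near that of all genes.

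**Figure D4:**
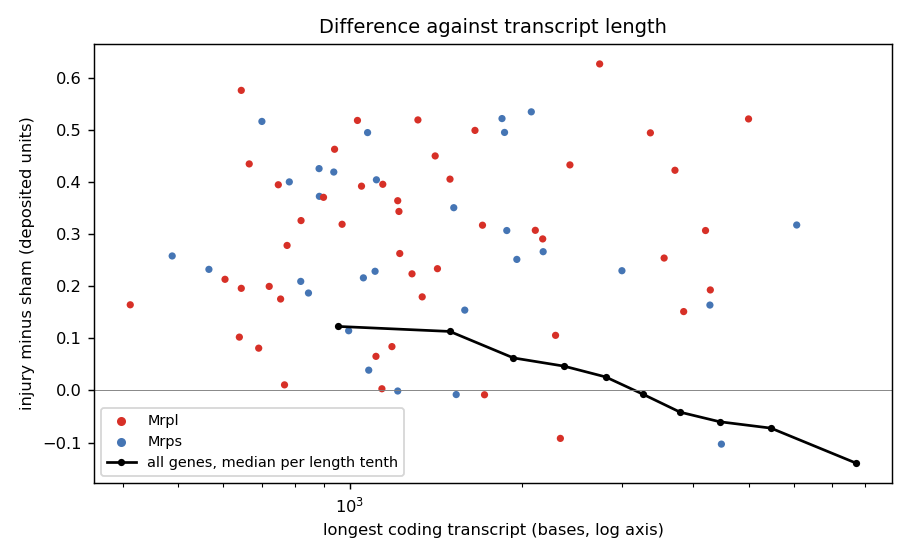
Difference between injury and sham (deposited units) of each member against the length of its longest coding transcript (bases, log axis), red for *Mrpl* and blue for *Mrps*. The black line joins the medians of all genes in 10 bins by length, from 0.12 in the shortest to -0.14 in the longest. Most members lie above the line.

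The promoters were read because the genes lay higher together. RefSeq windows from 250 bases before to 50 bases after the start (assembly GRCm38.p6, a later assembly than that of the files) were found by symbol for 68 of the 77 members and for 9586 genes of the table. The first window listed for a gene was used. The windows were searched on both strands for the letters CCGGAAG (the ETS factors, among them GABP), AAGATGGCG (YY1), TCAAGGTCA (the estrogen-related receptors) and CACGTG (E-box), and for the core motif of nuclear respiratory factor 1 (NRF1) with 1 free base. A window can hold several motifs. The ETS letters were in 24 of the 68 members (35.3%), against 18.1% of all windows. The NRF1 core was in 13 (19.1%, against 10.5%), the YY1 letters in 8 (11.8%, against 3.24%), the E-box letters in 5 (7.35%, against 10.3%) and the estrogen-related receptor letters in 0 (against 0.250%). In 6 of the 8 members with the YY1 letters these began 12 to 37 bases after the start on the coding strand. Members with and without the letters had median differences of 0.23 and 0.31 for ETS, 0.25 and 0.28 for NRF1, 0.39 and 0.25 for YY1 and 0.39 and 0.25 for the E-box, given with no test. A match is a description of the window and not a site in use.

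The windows of 6 members are shown, with the matched ETS, NRF1 and YY1 letters in capitals on either strand. *Mrpl51* has the highest difference (0.63) and 1 ETS match, which begins 90 bases before the start. Its window runs from 125191950 to 125192249 on chromosome 6. *Mrps27* has the lowest adjusted p-value and both ETS and YY1 matches. *Mrpl12* of the stalk has 1 NRF1 match and *Mrpl45* of the polypeptide exit has 3. *Mrps18a*, like *Mrps27*, holds an ETS match before the start and a YY1 match after it, and *Mrpl3*, with the lowest difference of the large subunit (-0.092), also holds 1 ETS match. All 6 are written on the coding strand, which is the plus strand.
Mrpl51, chr6:125191950-125192249: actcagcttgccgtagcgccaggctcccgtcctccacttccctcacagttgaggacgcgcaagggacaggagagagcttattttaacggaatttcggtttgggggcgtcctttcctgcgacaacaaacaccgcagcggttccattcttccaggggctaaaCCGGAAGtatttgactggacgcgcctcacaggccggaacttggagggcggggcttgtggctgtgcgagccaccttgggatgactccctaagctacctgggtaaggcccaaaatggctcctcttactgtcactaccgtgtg
Mrps27, chr13:99344536-99344835: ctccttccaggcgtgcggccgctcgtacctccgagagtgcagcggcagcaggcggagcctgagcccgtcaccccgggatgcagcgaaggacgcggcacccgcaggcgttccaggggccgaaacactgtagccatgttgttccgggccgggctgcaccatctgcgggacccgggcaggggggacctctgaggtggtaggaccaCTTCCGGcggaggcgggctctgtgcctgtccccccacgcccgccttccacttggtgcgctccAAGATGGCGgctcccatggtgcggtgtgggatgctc
Mrpl12, chr11:120484387-120484686: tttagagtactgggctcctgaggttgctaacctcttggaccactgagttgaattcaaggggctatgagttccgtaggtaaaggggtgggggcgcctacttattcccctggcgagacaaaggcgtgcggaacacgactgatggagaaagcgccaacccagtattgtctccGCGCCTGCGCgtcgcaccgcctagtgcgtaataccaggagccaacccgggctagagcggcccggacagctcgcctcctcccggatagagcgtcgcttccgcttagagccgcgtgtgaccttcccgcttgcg
Mrpl45, chr11:97315466-97315765: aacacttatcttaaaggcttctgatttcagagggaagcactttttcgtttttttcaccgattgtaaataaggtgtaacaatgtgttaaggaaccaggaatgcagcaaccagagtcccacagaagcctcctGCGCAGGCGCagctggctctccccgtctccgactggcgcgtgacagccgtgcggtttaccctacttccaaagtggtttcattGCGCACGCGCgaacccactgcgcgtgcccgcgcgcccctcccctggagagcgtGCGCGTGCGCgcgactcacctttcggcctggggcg
Mrps18a, chr17:46110754-46111053: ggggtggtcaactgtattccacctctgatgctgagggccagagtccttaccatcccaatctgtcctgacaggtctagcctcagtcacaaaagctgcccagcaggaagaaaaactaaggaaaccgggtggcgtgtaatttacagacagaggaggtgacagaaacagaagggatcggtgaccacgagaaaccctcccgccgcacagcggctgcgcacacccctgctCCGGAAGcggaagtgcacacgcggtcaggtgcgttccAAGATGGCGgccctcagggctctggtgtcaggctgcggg
Mrpl3, chr9:105053018-105053317: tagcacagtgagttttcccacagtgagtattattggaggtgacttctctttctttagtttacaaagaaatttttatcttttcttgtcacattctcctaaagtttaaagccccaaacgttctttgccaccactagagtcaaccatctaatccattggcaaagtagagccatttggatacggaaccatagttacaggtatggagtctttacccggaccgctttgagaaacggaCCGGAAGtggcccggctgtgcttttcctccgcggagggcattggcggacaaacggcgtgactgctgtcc

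Many members share their start region with another gene. In the mm9 annotation 28 of 76 members (36.8%) have a coding gene on the opposite strand that starts within 1000 bases of their own start, against 15.4% of the coding genes of the table. The 24 neighbours outside the family that have values had a median difference of 0.059, and 10 of the 24 (41.7%) were higher in both injury libraries, against 31.6% of all genes. Members with such a neighbour had a median difference of 0.25 (28 genes) and those without had 0.32 (48 genes). One pair joins the subunits, *Mrps11* and *Mrpl46* on chromosome 7, which differed by 0.22 and 0.065. Injury 1 was above injury 2 in both, by 0.15 and 0.29. *Ndufb5*, a complex I subunit opposite *Mrpl47*, stood at -0.33 and -0.011 in sham tissue and at 0.45 and 0.62 in injured tissue (difference 0.71, adjusted p = 0.0661 from limma). *Sars2*, the mitochondrial seryl-tRNA synthetase opposite *Mrps12*, differed by 0.11, and *Ncapd2*, a condensin subunit opposite *Mrpl51*, by 0.040. These 3 neighbours were chosen after their values were seen.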

How the data were processed

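RNA was sequenced from 4 libraries, 2 sham and 2 injury, made with a stranded mRNA kit and read as paired ends. Per the methods and the processing notes, the authors used FastQC 0.11.8, Cutadapt 1.18, Trimmomatic 0.39, STAR 2.6.0a on mm9, featureCounts and DESeq2 1.28.0. The values the authors deposited are a signed score per gene and library on a log-like scale, from -2.27 to 6.45, and the step from reads to these values is not given in the sources used here. Depth is unknown, so precision is given by the replicates alone.

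The 4 columns were fitted with limma 3.58.1 in R 4.3.3 (group as the only term, 3.48 prior degrees of freedom) and adjusted by Benjamini-Hochberg over 12661 genes, with no filter. The limma script was tested on simulated data. Sets of genes were described by counts and medians, with no test. Figures and tables were made with pandas 2.3.3, numpy 2.4.6, scipy 1.17.1 and matplotlib 3.10.9. The members and lists were chosen with earlier results of these data known. Named members were those under the threshold, the 5 highest and 5 lowest differences of the large subunit, the 5 highest and 3 lowest of the small subunit, and the fixed lists of ribosomal regions, S18 copies, disease genes and names that go against the structure. Other genes are named for the threshold of 0.1, the gaps between replicates, their part in mitochondrial translation or their neighbours, and were chosen after their values were seen. The alternatives were a replicate block, each library left out, a threshold of 0.1, subunits by structure, duplicate genes counted once, a robust prior for the variance, the columns brought to an equal spread or to equal quantiles and, chosen after seeing the data, library medians centred and the GC and length trend removed in 10 bins each.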

Additional observations from a re-analysis of the deposited data

How the results depend on the processing

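No member was called by limma under any alternative at an adjusted p-value under 0.05, and 8 were at 0.1, or 0 to 5 at 0.1 with a library left out, 3 with the GC and length trend removed, 1 with the replicate block, 12 after quantile normalization and 10 with the columns brought to an equal spread. Members higher at an unadjusted p-value under 0.05 numbered 26, or 0 (without sham replicate 1) to 17 with a library left out, where the lone sample of a group is assumed to vary like the other group. They numbered 15 with the GC and length trend removed (14.8% of all genes) and 11 with that and the replicate block together (13.4%). The median difference was 0.21 to 0.34 with a library left out (0.21 to 0.34 for the large and 0.21 to 0.33 for the small subunit) and 0.23 with the trend removed (0.23 for the large subunit). The gap between the subunits was -0.0006 to 0.021 with a library left out, 0.034 after quantile normalization and 0.015 with the trend removed. Its cause was not tested.

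Replicate numbers pair no samples by the labels, and deviations of equal numbers correlated at -0.094 across genes. With the replicate block 18 members were higher at an unadjusted p-value under 0.05 (13.4% of all genes), 0 were called, and 684 of all genes were called against 941 without the block. *Lrpprc* was then at an adjusted p = 0.0717 from limma.

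Among the members described one by one, signs turned in 10 with differences near 0. After quantile normalization *Mrpl21* was at -0.0077, *Mrpl32* at -0.0009 and *Mrpl49* at 0.0049, and with columns scaled to one spread they were at -0.016, -0.020 and 0.0063. With the trend removed, with or without the replicate block, *Mrpl21* was at -0.13, *Mrpl23* at -0.0080, *Mrpl32* at -0.11, *Mrpl40* at -0.079, *Mrpl46* at -0.064 and *Mrps18b* at -0.090. Other members kept their sign but changed in size over the fits with all 4 libraries. Among them *Mrps11* ranged from 0.053 to 0.22, *Mrpl22* from 0.083 to 0.21 and *Mrps16* from 0.10 to 0.24. With a library left out the ranges were -0.080 to 0.086 for *Mrpl21*, -0.050 to 0.21 for *Mrpl23*, -0.25 to 0.065 for *Mrpl3*, -0.11 to 0.13 for *Mrpl32*, -0.066 to 0.23 for *Mrpl40*, -0.081 to 0.21 for *Mrpl46*, -0.10 to 0.088 for *Mrpl49*, -0.089 to 0.17 for *Mrps18b*, -0.14 to 0.14 for *Mrps22* and -0.18 to 0.17 for *Mrps31*. The count with no overlap was 66 to 71 with a library left out, where 39.9% to 42.4% of all genes had none in that direction (31.6% with all libraries). No symbol of a member marks a pseudogene, so that alternative gave no value. Read depth is unknown, so what it limits could not be assessed.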
